A study of Mus musculus with 10 samples.

Results

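The mitochondrial SLC25 carriers are the family of small membrane proteins that move metabolites across the inner mitochondrial membrane, and they were followed here in fetal mouse testes cultured with an inhibitor of glycogen breakdown. Members were taken as every entry of the gene table whose symbol begins with Slc25a, leaving out Slc25a1, Slc25a20 and Slc25a44, which gave 44 carriers among 24470 genes. Male gonads of C57BL/6 mouse embryos at E12.5, still attached to the mesonephros, were cultured for 48 h. From each of 5 embryos, 1 gonad received 75 µM of the glycogen phosphorylase inhibitor CP 316819 (GPI) and the other gonad received the vehicle, DMSO. The gonad was freed from the mesonephros after culture, so that each of the 10 libraries holds RNA of every cell type in 1 gonad, and no mutant allele or transgene is named for any group. Positions of genes are those of mm10. Vehicle libraries held 10203679 to 15590223 counts and GPI libraries 11025409 to 15635322. The tissue label was met by the Sertoli cell gene Sox9, with a mean of 1231 normalized counts with vehicle, while the ovarian gene Foxl2 was at 30.6 and the tubule gene Pax8, a marker of mesonephros, at 179 with a wide spread between gonads (SD 136, n = 5).

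Each carrier binds its substrate on one face of the membrane and releases it on the other, often in exchange for a second solute. ADP/ATP and phosphate carriers feed ATP synthase, the aspartate/glutamate and oxoglutarate carriers run the malate-aspartate shuttle that brings reducing power from glycolysis into mitochondria, and others bring in iron, glutathione, NAD, nucleotides or coenzyme A. In the fetal testis, Sertoli cells surround the germ cells in cords and Leydig cells outside the cords begin steps of steroid synthesis that take place in mitochondria. Slc25a31 encodes an ADP/ATP carrier known for its expression in male germ cells, and Slc25a37 encodes mitoferrin-1, the iron importer of developing red blood cells.

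Of the 44 carriers, 38 had enough counts to be tested, and 12 of these (31.6%) differed between treatments at an FDR of 0.05 in the quasi-likelihood test of edgeR, adjusted over all genes by Benjamini-Hochberg, against 22.9% of the 13941 genes tested. Higher with GPI were Slc25a35, Slc25a33, Slc25a13, Slc25a30, Slc25a28, Slc25a40, Slc25a36, Slc25a51 and Slc25a3, 9 carriers (23.7%) against 11.1% of all genes. Lower with GPI were Slc25a31, Slc25a37 and Slc25a25, 3 carriers (7.89%) against 11.9% of all genes. The median log2 fold change was 0.21 over the tested carriers and 0.02 over all tested genes, with 26 of the 38 carriers above 0 and 12 below, where 52.5% of all tested genes were above 0. The carriers' median was 0.11 without embryo 1 and 0.125 without embryo 3. These shares describe the list and were not tested. Counts called in the smaller groups and other gene lists below stand beside the same shares of all genes. Those shares are 11.1% higher and 11.9% lower, and the counts were not tested against them. Over all genes 1544 were called higher and 1654 lower, which became 1238 and 1972 with scaling by total counts, and the number higher was 969 without embryo 3 and 1024 without embryo 4. Scaling by total counts alone gave 4 carriers higher and 4 lower in place of 9 and 3, and the number higher was 4 without embryo 1 and 5 without embryo 3, 4 or 5. Without embryo 1, these were 4 of 38 tested carriers against 1396 of 13962 tested genes, shares that are close to each other. Without embryo 5, 1262 of 13961 tested genes were called higher. Slc25a35, Slc25a33, Slc25a13, Slc25a30 and Slc25a37 were called under each of the 12 alternative settings.

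Sizes, given as log2 fold changes of GPI over vehicle with their standard error (SE), ranged widely among the 12. Only Slc25a35, Slc25a33 and Slc25a31 had an absolute log2 fold change above 1, while Slc25a36, Slc25a51 and Slc25a3, which are abundant, had values under 0.3. In 10 of the 12 the direction was the same in 5 of 5 embryos, the exceptions being Slc25a28 and Slc25a40 with 4 of 5. All 5 GPI libraries lay above all 5 vehicle libraries for 4 tested carriers, Slc25a10, Slc25a13, Slc25a22 and Slc25a33, where 7.04% of all tested genes did so. They lay below for 1, Slc25a37, where 9.02% of all tested genes did so. Slc25a10 and Slc25a22 were not called. Counts given for single libraries are normalized counts, scaled by TMM to the mean library size and listed in the order of embryos 1 to 5.

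**Figure D1:**
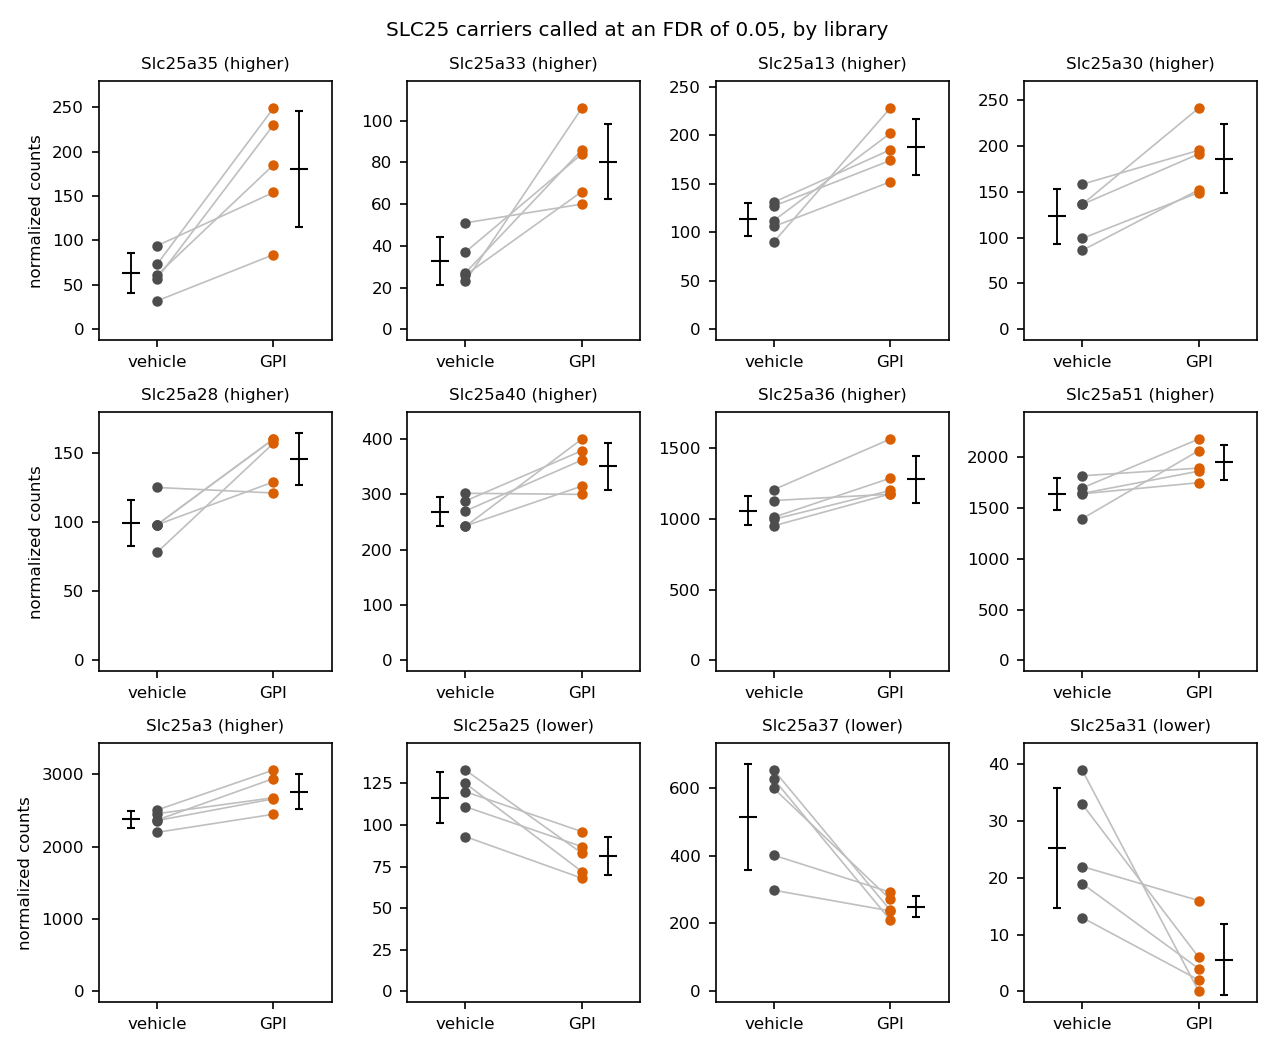
Normalized counts (vertical axis, from 0) of the 12 carriers called at an FDR of 0.05, with 1 point per library for vehicle (grey) and GPI (orange), grey lines joining the gonads of 1 embryo, and black bars for mean ± SD (n = 5). Slc25a13 and Slc25a33 with GPI lie above every vehicle library and Slc25a37 lies below, while the other 9 overlap.

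**Figure D2:**
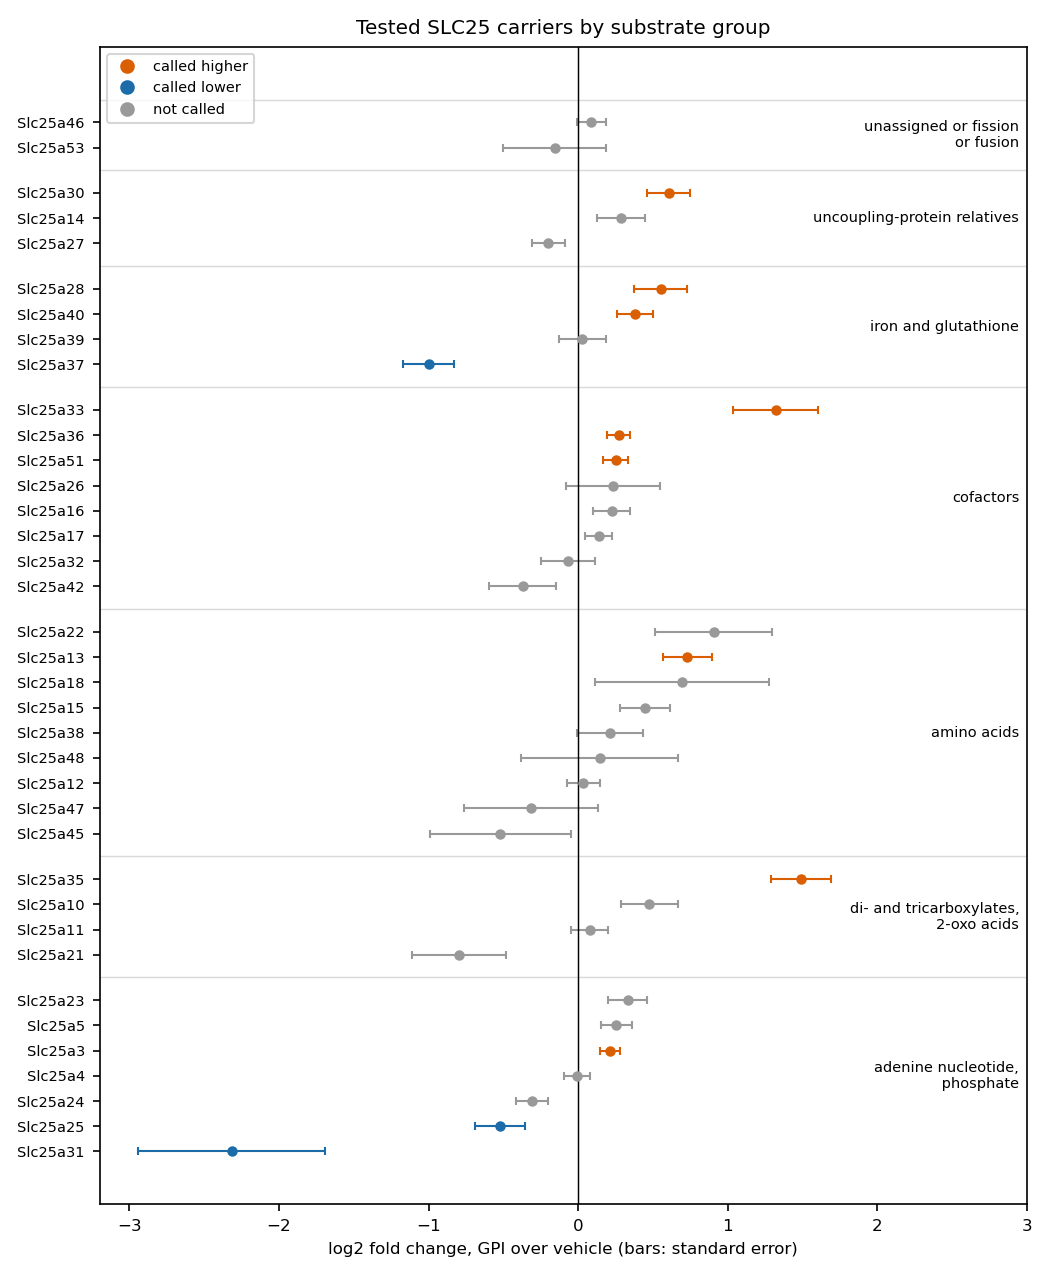
Log2 fold change of GPI over vehicle (horizontal axis) with its standard error for tested carriers, grouped by substrate, with carriers called higher in orange, called lower in blue and the rest in grey. Values run from -2.32 for Slc25a31 to 1.49 for Slc25a35, and most points lie right of 0.

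Carriers of adenine nucleotides and phosphate included the most abundant members. Per kilobase of the longest annotated transcript, the mean level with vehicle was 1430 normalized counts for Slc25a4, 1072 for Slc25a5 and 589 for Slc25a3, followed by 411 for Slc25a46 and 369 for Slc25a51. With GPI the first 3 places were held in the same order, with 1414, 1289 and 683 normalized counts per kilobase. This order depends on the lengths used, 1925 bases for Slc25a4, 1240 for Slc25a5 and 4039 for Slc25a3. Without division by length, their means with vehicle were 2753, 1329 and 2379 normalized counts, which puts Slc25a3 above Slc25a5. Which transcripts the gonads used was not tested. Of the 7 tested carriers in the group, 1 was called higher and 2 lower, and the group's median log2 fold change was -0.01. Slc25a3 (Entrez Gene 18674, chr10:91116578-91123963, minus strand), the phosphate carrier that also delivers copper to the matrix, had 2199, 2457, 2362, 2369 and 2508 normalized counts with vehicle and 2450, 2679, 2663, 2943 and 3061 with GPI. Each GPI-treated gonad was above its vehicle-treated partner, but the treatments overlapped, since embryo 1 with GPI was lower than embryos 2 and 5 with vehicle. The means were 2379 ± 118 (SD, n = 5) and 2759 ± 243 (SD, n = 5), a log2 fold change of 0.21 ± 0.07 (SE, edgeR adjusted p = 0.0349). The adjusted p of Slc25a3 was 0.069 to 0.14 without embryo 1, 3, 4 or 5, 0.0549 with no filter on low counts and 0.108 with scaling by total counts.

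Slc25a4, the ADP/ATP carrier of heart and muscle, had 3118, 2816, 2741, 2918 and 2170 normalized counts with vehicle and 2688, 2537, 2957, 2633 and 2788 with GPI. The treatments overlapped, with embryo 5 under vehicle the lowest of all 10 libraries, at a log2 fold change of -0.01 ± 0.09 (SE, edgeR adjusted p = 0.961), and the sign turned to 0.03 without embryo 1, 2 or 4, with -0.10 without embryo 5. Slc25a5, the ADP/ATP carrier of dividing cells, had 1132, 1628, 1358, 1307 and 1223 normalized counts with vehicle and 1223, 1392, 1719, 2021 and 1634 with GPI. It was higher with GPI in 4 of 5 embryos and lower in embryo 2, and the log2 fold change of 0.26 ± 0.11 (SE, edgeR adjusted p = 0.103) was not called. Without embryo 2 the value was 0.38 and passed the threshold (edgeR adjusted p = 0.0116), and without embryo 4 it was 0.16. The annotation lists pseudogenes of Slc25a5, so its reads may be split between loci, and the effect on its counts was not tested.

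Slc25a31 (Entrez Gene 73333, chr3:40708871-40726094, plus strand), the germ cell ADP/ATP carrier, had 22, 33, 39, 19 and 13 normalized counts with vehicle and 16, 6, 0, 4 and 2 with GPI. It was low in every library, and only embryo 1 with GPI reached into the vehicle range. The means were 25.3 ± 10.7 (SD, n = 5) and 5.71 ± 6.06 (SD, n = 5), a log2 fold change of -2.32 ± 0.63 (SE, edgeR adjusted p = 0.0157), lower in 5 of 5 embryos. Without embryo 2 the adjusted p was 0.0542, and with a minimum of 10 counts in every library Slc25a31 was not tested. Germ cell markers moved the same way. All 5 tested genes of a list of 6 (Ddx4, Dazl, Dppa3, Pou5f1, Mael and Sall4) were lower with GPI. Their summed level was 961, 2044, 1243, 1688 and 645 normalized counts with vehicle and 125, 101, 28, 34 and 97 with GPI, so that the mean with GPI was 5.8% of that with vehicle. By mean level, Dazl was the most abundant with vehicle and Ddx4 with GPI. Pou5f1 and Mael each had 0 counts in 3 of the 5 GPI libraries. In RNA of whole gonads, fewer cells of a type and less RNA per cell cannot be told apart, and the part of the germ cell markers in the value of Slc25a31 was not tested.

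The remaining members of this group carry ATP-Mg in exchange for phosphate, and in Slc25a23, Slc25a24 and Slc25a25 this exchange is switched on by calcium. Slc25a25 (Entrez Gene 227731, chr2:32414487-32451470, minus strand) had 133, 111, 93, 120 and 125 normalized counts with vehicle and 83, 87, 68, 96 and 72 with GPI. The ranges met only between embryo 3 with vehicle and embryo 4 with GPI. The means were 116 ± 15.4 (SD, n = 5) and 81.0 ± 11.4 (SD, n = 5), a log2 fold change of -0.52 ± 0.17 (SE, edgeR adjusted p = 0.0382), lower in 5 of 5 embryos. Its call was lost with DESeq2 (adjusted p = 0.05) and without embryo 1, 3, 4 or 5 (0.0717 to 0.124, edgeR). Since reads were counted without strand, the strand does not tell which of 2 overlapping genes a read came from. Slc25a25 shares 1014 bases of its locus with Naif1 on the other strand, which averaged 12.5 ± 5.78 normalized counts under vehicle against 17.7 ± 3.59 under GPI (SD, n = 5). Slc25a24 had a log2 fold change of -0.31 (edgeR adjusted p = 0.059) and Slc25a23 one of 0.33 (edgeR adjusted p = 0.0877), neither of them called. Slc25a24 passed the threshold without embryo 1 (-0.40, adjusted p = 0.0196, edgeR), with no replicate block (0.0498) and with scaling by total counts (0.0364), and Slc25a23 without embryo 2 (0.51, adjusted p = 0.00217, edgeR). Slc25a41 had at most 3 counts in a library and was not tested.

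Among carriers listed under dicarboxylates, tricarboxylates and 2-oxo acids, 1 of 4 tested was called higher and 0 lower, with a group median of 0.28 on the log2 scale. Slc25a35 (Entrez Gene 71998, chr11:68968131-68972515, plus strand), a carrier with no firmly assigned substrate, had 32, 61, 73, 57 and 94 normalized counts with vehicle and 84, 185, 249, 230 and 154 with GPI. Only embryo 1 with GPI fell within the vehicle range, below embryo 5 with vehicle, and embryo 1 was also the lowest with vehicle. The means were 63.4 ± 22.8 (SD, n = 5) and 180 ± 65.7 (SD, n = 5), a log2 fold change of 1.49 ± 0.20 (SE, edgeR adjusted p = 0.000101), higher in 5 of 5 embryos. This was the highest value among the 38 tested carriers. Its locus shares 32 bases with Rangrf on the other strand, which averaged 25.3 ± 7.96 normalized counts under vehicle against 22.1 ± 6.28 under GPI (SD, n = 5). Slc25a34 had 0 to 21 counts in a library and was not tested.

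Slc25a10, which exchanges malate or succinate for phosphate, had 60, 68, 56, 58 and 73 normalized counts with vehicle and 91, 77, 78, 75 and 122 with GPI. Each GPI library was above each vehicle library, yet the log2 fold change of 0.48 ± 0.19 (SE, edgeR adjusted p = 0.0879) did not pass the threshold. Slc25a11, the oxoglutarate/malate carrier, had 338, 414, 325, 331 and 269 normalized counts with vehicle and 322, 336, 324, 399 and 378 with GPI. The treatments were mixed, with a log2 fold change of 0.08 ± 0.12 (SE, edgeR adjusted p = 0.716) that turned to -0.03 without embryo 5 and was 0.175 without embryo 2. Slc25a21, which carries 2-oxoadipate, had a log2 fold change of -0.79 ± 0.31 (SE, edgeR adjusted p = 0.0899) and was lower in 4 of 5 embryos. Without embryo 2 it passed the threshold, at -1.075 (edgeR adjusted p = 0.0311). It shares 189 bases with Pax9 on the other strand, which averaged 21.8 ± 8.83 normalized counts under vehicle against 8.99 ± 4.24 under GPI (SD, n = 5), a log2 fold change of -1.28 (edgeR adjusted p = 0.0618), and the part of these counts in the value of Slc25a21 was not tested.

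Of 9 tested carriers listed under amino acids, 1 was called higher and 0 lower, with a group median of 0.21 on the log2 scale. The list includes Slc25a47 and Slc25a48, for which no amino acid substrate is given here. Slc25a13 (Entrez Gene 50799, chr6:6041218-6217173, minus strand) encodes citrin, an aspartate/glutamate carrier of the malate-aspartate shuttle, and had 112, 106, 131, 90 and 127 normalized counts with vehicle and 202, 152, 185, 228 and 174 with GPI. All GPI libraries were above all vehicle libraries, and the embryo with the lowest vehicle value, embryo 4, had the highest with GPI. The means were 113 ± 16.6 (SD, n = 5) and 188 ± 28.8 (SD, n = 5), a log2 fold change of 0.73 ± 0.16 (SE, edgeR adjusted p = 0.005). Its paralogue Slc25a12, or aralar, transports the same substrates and is the form of muscle and brain. Slc25a12 had 353, 445, 342, 340 and 365 normalized counts with vehicle and 453, 366, 379, 344 and 351 with GPI. The treatments overlapped widely, with a log2 fold change of 0.04 ± 0.11 (SE, edgeR adjusted p = 0.859), and the sign turned to -0.06 without embryo 1, to -0.01 without embryo 3 and to -0.01 with scaling by total counts, with 0.12 without embryo 2. Mean levels per kilobase were taken over the longest annotated transcript, 6351 bases for Slc25a12 and 3121 for Slc25a13. They were 58.1 and 36.2 normalized counts with vehicle and 59.6 and 60.3 with GPI. Without division by length, the means were 369 and 113 with vehicle and 379 and 188 with GPI, so Slc25a12 stayed the higher. Which transcripts the gonads used was not tested, so the levels per kilobase do not rank these genes.

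The enzymes on both sides of this shuttle formed a list of 4, of which 3 were called higher and 0 lower. Of all tested genes 11.1% were called higher and 11.9% lower, and the list was not tested against these shares. Got1, the cytosolic aspartate aminotransferase, averaged 388 ± 53.1 normalized counts under vehicle against 773 ± 123 under GPI (SD, n = 5), a log2 fold change of 0.99 ± 0.11 (SE, edgeR adjusted p = 2.22e-05). The cytosolic malate dehydrogenase Mdh1 had a log2 fold change of 0.38 (edgeR adjusted p = 0.0143), which lost its call without embryo 4 (0.0851) or 5 (0.0693). The mitochondrial aminotransferase Got2 had a log2 fold change of 0.24 (edgeR adjusted p = 0.0445), and its adjusted p was above the threshold without any 1 of the 5 embryos (0.0721 to 0.182) and 0.0525 to 0.112 with DESeq2, DESeq2 size factors, scaling by total counts, no filter on low counts or a minimum of 10 counts in every library. The mitochondrial malate dehydrogenase Mdh2 had a log2 fold change of 0.11 (edgeR adjusted p = 0.443), was not called and was at 0.06 without embryo 5 or with scaling by total counts.

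Slc25a38, which brings glycine into mitochondria for heme synthesis, had 43, 43, 47, 65 and 56 normalized counts with vehicle and 63, 50, 58, 62 and 61 with GPI. The log2 fold change was 0.21 ± 0.22 (SE, edgeR adjusted p = 0.546) and 0.12 without embryo 1. The ornithine carrier Slc25a15 had a log2 fold change of 0.45 (edgeR adjusted p = 0.0736) and was higher in 5 of 5 embryos, but was not called. The glutamate carriers Slc25a22 and Slc25a18 had few counts, with log2 fold changes of 0.91 ± 0.39 (SE, edgeR adjusted p = 0.12) and 0.70 ± 0.58 (SE, edgeR adjusted p = 0.447). Slc25a18 ran from 0.21 without embryo 2 to 1.18 without embryo 1, and was not tested without embryo 3. Slc25a48 (0.15), Slc25a47 (-0.32) and Slc25a45 (-0.52) had log2 fold changes with an SE of 0.45 to 0.52. With 1 embryo left out, Slc25a48 ran from -0.14 (embryo 3) to 0.64 (embryo 2), Slc25a47 from -0.57 (embryo 3) to -0.08 (embryo 2) and Slc25a45 from -1.05 (embryo 4) to -0.225 (embryo 3). Slc25a48 was not tested without embryo 5. The basic amino acid carrier Slc25a29 and the ornithine carrier Slc25a2 reached at most 14 and 13 counts in a library and were not tested. Among enzymes of ornithine metabolism, Odc1, which makes putrescine from ornithine, was called higher with a log2 fold change of 0.79 ± 0.09 (SE, edgeR adjusted p = 1.42e-05), and Oat had a log2 fold change of 0.14 (edgeR adjusted p = 0.228), or 0.09 with scaling by total counts.

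Cofactor carriers had 3 of 9 tested members called higher and 0 lower, with a group median of 0.22 on the log2 scale. Slc25a33 and Slc25a36 carry pyrimidine nucleotides into mitochondria, where they serve the synthesis of mitochondrial DNA and RNA. Slc25a33 (Entrez Gene 70556, chr4:149744036-149774267, minus strand) had 26, 37, 51, 23 and 27 normalized counts with vehicle and 66, 84, 60, 106 and 86 with GPI. No GPI library fell within the vehicle range, with the smallest difference in embryo 3 and the largest in embryo 4. The means were 32.7 ± 11.7 (SD, n = 5) and 80.4 ± 18.3 (SD, n = 5), a log2 fold change of 1.32 ± 0.29 (SE, edgeR adjusted p = 0.00391). Slc25a36 (Entrez Gene 192287, chr9:97077011-97111041, minus strand) was far more abundant, with 1208, 1013, 952, 1131 and 998 normalized counts with vehicle and 1566, 1289, 1178, 1176 and 1202 with GPI. Embryo 1 was the highest in both treatments, and its vehicle value exceeded 3 of the GPI values. The means were 1060 ± 105 (SD, n = 5) and 1282 ± 165 (SD, n = 5), a log2 fold change of 0.27 ± 0.08 (SE, edgeR adjusted p = 0.0205), higher in 5 of 5 embryos. The adjusted p of Slc25a36 was 0.0512 to 0.107 without embryo 1, 3 or 5 and 0.0551 with scaling by total counts.

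Slc25a51 (Entrez Gene 230125, chr4:45395923-45408766, minus strand), the importer of NAD, had 1644, 1395, 1698, 1818 and 1641 normalized counts with vehicle and 1864, 2066, 2180, 1894 and 1750 with GPI. Every embryo was higher with GPI, by little in embryo 4 and most in embryo 2. The means were 1639 ± 154 (SD, n = 5) and 1951 ± 171 (SD, n = 5), a log2 fold change of 0.25 ± 0.08 (SE, edgeR adjusted p = 0.0462). Without embryo 1, 2, 3 or 4 the adjusted p of Slc25a51 was 0.0508 to 0.214, with DESeq2 size factors 0.0549, with a minimum of 10 counts in every library 0.0533 and with scaling by total counts 0.0984. The remaining 6 cofactor carriers were not called. Log2 fold changes among them were 0.23 for the S-adenosylmethionine carrier Slc25a26, 0.22 for Slc25a16, 0.14 for the peroxisomal carrier Slc25a17, -0.06 for the folate and FAD carrier Slc25a32 and -0.37 for the coenzyme A carrier Slc25a42. Slc25a26 had 16 normalized counts in embryo 1 with vehicle against 48 to 88 in the other vehicle libraries, and its value was -0.09 without embryo 1 and 0.51 without embryo 2. Slc25a16 was at 0.11 without embryo 4 and Slc25a17 at 0.09 without embryo 1. Slc25a32 turned to 0.04 without embryo 1 and 0.025 without embryo 3, and was -0.26 without embryo 2. Slc25a26 overlaps Lrig1 on the other strand by 127 bases, and Lrig1 was itself higher with GPI (log2 fold change 1.04).

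Carriers of iron and glutathione split by direction, with 2 of 4 called higher and 1 lower. Slc25a37 (Entrez Gene 67712, chr14:69241851-69285103, minus strand), mitoferrin-1, had 298, 401, 598, 652 and 625 normalized counts with vehicle and 237, 292, 271, 239 and 210 with GPI. All GPI libraries were below all vehicle libraries, and the vehicle libraries of embryos 1 and 2 were the lowest of their treatment. The means were 515 ± 157 (SD, n = 5) and 250 ± 31.8 (SD, n = 5), a log2 fold change of -0.997 ± 0.17 (SE, edgeR adjusted p = 0.000708). Slc25a28 (Entrez Gene 246696, chr19:43663801-43674881, minus strand), mitoferrin-2, the iron importer of other tissues, had 78, 125, 98, 98 and 98 normalized counts with vehicle and 157, 121, 129, 160 and 160 with GPI. Embryo 2 was the exception, with the highest vehicle value and the lowest GPI value. The means were 99.4 ± 17 (SD, n = 5) and 145 ± 18.8 (SD, n = 5), a log2 fold change of 0.55 ± 0.18 (SE, edgeR adjusted p = 0.0381). The call of Slc25a28 was lost without embryo 1, 3, 4 or 5 (adjusted p 0.0865 to 0.133, edgeR) and with scaling by total counts (0.0645).

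Red blood cell markers moved in the direction of Slc25a37. Of 10 erythroid genes, 9 were called lower with GPI and Hba-x, with a log2 fold change of -0.45, was not called. Their summed level was 2114, 2924, 5443, 5126 and 4236 normalized counts with vehicle and 1868, 1021, 957, 1074 and 2501 with GPI, a mean with GPI of 37.4% of that with vehicle. Embryos 1 and 2 had the lowest sums with vehicle, as they had for Slc25a37, whereas with GPI embryos 1 and 5 had the highest sums and Slc25a37 was lowest in embryo 5. Hbb-y was the most abundant of the list. The part of the erythroid markers in the value of Slc25a37 was not tested. Among 7 genes of heme and iron-sulfur cluster synthesis, 2 were called higher and 1 lower. The erythroid heme synthesis enzyme Alas2, which overlaps Mir3620 and is also among the erythroid markers, had a log2 fold change of -0.75 ± 0.16 (SE, edgeR adjusted p = 0.00412). Its counterpart of other tissues, Alas1, had a log2 fold change of 0.45 ± 0.15 (SE, edgeR adjusted p = 0.0432), which was not called with scaling by total counts (0.0763) or without embryo 2, 3, 4 or 5 (0.0789 to 0.209), with a value of 0.29 without embryo 4. The scaffold protein Iscu had a log2 fold change of 0.80 ± 0.13 (SE, edgeR adjusted p = 0.000497).

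**Figure D3:**
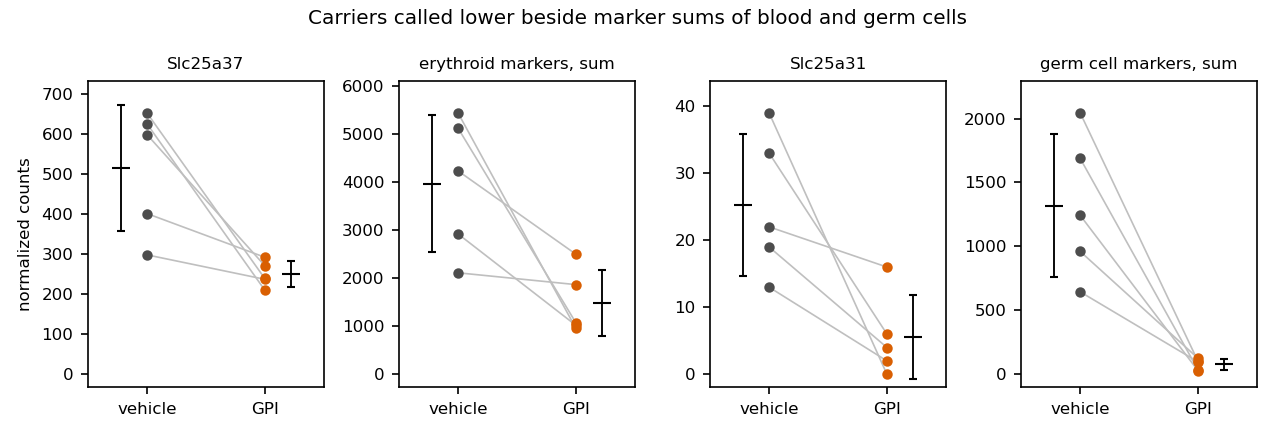
Normalized counts (vertical axes) of Slc25a37 and Slc25a31 beside the summed normalized counts of 10 erythroid and 6 germ cell markers, with 1 point per library for vehicle (grey) and GPI (orange), lines joining the gonads of 1 embryo and bars for mean ± SD (n = 5). The GPI mean is 37.4% of the vehicle mean for the erythroid sum and 5.8% for the germ cell sum.

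Slc25a40 (Entrez Gene 319653, chr5:8422838-8454839, plus strand) and Slc25a39 both supply mitochondria with glutathione. Slc25a40 had 270, 243, 302, 242 and 288 normalized counts with vehicle and 362, 315, 300, 400 and 379 with GPI. In embryo 3 both gonads had nearly the same value, where the treatments overlapped, and the other 4 were higher with GPI. The means were 269 ± 26.4 (SD, n = 5) and 351 ± 42.4 (SD, n = 5), a log2 fold change of 0.38 ± 0.12 (SE, edgeR adjusted p = 0.0329). The adjusted p of Slc25a40 was 0.0587 to 0.161 without embryo 1, 2, 4 or 5 and 0.0748 with scaling by total counts. Slc25a39 had 123, 166, 88, 122 and 139 normalized counts with vehicle and 144, 135, 101, 144 and 121 with GPI. It did not separate the treatments, with a log2 fold change of 0.03 ± 0.16 (SE, edgeR adjusted p = 0.928) that turned to -0.04 without embryo 1, to -0.03 without embryo 3 or 4 and to -0.02 with scaling by total counts, with 0.11 without embryo 2. Its locus holds the microRNA gene Mir6930, which had no counts.

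The 3 relatives of the uncoupling proteins are expressed in brain, kidney and other tissues, and their substrates are less well known. Slc25a30 (Entrez Gene 67554, chr14:75761999-75787037, minus strand) was called higher, with 99, 158, 136, 86 and 136 normalized counts with vehicle and 149, 195, 191, 152 and 241 with GPI. Embryos 1 and 4 were the lowest in both treatments, and within each embryo the GPI value was the higher one. The means were 123 ± 29.7 (SD, n = 5) and 185 ± 37.7 (SD, n = 5), a log2 fold change of 0.61 ± 0.14 (SE, edgeR adjusted p = 0.0073). Slc25a14 had a log2 fold change of 0.29 (edgeR adjusted p = 0.234) and Slc25a27 one of -0.20 (edgeR adjusted p = 0.23). Of the carriers without an assigned substrate, Slc25a46, an outer membrane protein of mitochondrial fission and fusion, had a log2 fold change of 0.09 (edgeR adjusted p = 0.579) and Slc25a53, which overlaps Zcchc18 on the other strand, one of -0.16 (edgeR adjusted p = 0.802). Slc25a46 turned to -0.03 without embryo 2, whose vehicle library had 1279 normalized counts against 1767 to 1991 in the others, and was 0.15 without embryo 5. Slc25a53 turned to 0.02 without embryo 1 and 0.06 without embryo 5, and was -0.35 without embryo 4. Slc25a43 and Slc25a54 reached at most 15 and 12 counts in a library and were not tested.

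In all, 19 of the 38 tested carriers had an unadjusted p under 0.05, against 4742 of the 13941 genes tested, and 7 of these (Slc25a5, Slc25a10, Slc25a15, Slc25a21, Slc25a22, Slc25a23 and Slc25a24) were not called. The 44 carriers together took 0.1273% to 0.1344% of all counts under vehicle and 0.1342% to 0.1471% under GPI, ranges that just met.

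Markers of Sertoli and Leydig cells were higher with GPI, as the 9 carriers were. Of 7 Sertoli markers, 6 were called higher, and their summed level was 2994, 4642, 3513, 4420 and 4998 normalized counts with vehicle and 3635, 6869, 7227, 8841 and 6819 with GPI, with Aard the most abundant. Of 5 fetal Leydig markers, all 4 tested were called higher and Insl3 was not tested, and their sum was 1280, 2700, 3980, 1991 and 5303 with vehicle and 9634, 10119, 15750, 18089 and 12928 with GPI. By mean level, Hsd3b1 was the most abundant of them with vehicle and Cyp11a1 with GPI. Embryo 1 with GPI was the lowest GPI library for both sums and, of the 9 carriers, for Slc25a35, Slc25a3 and Slc25a30. It was the highest GPI library for Slc25a36, and neither the lowest nor the highest for Slc25a13, Slc25a28, Slc25a33, Slc25a40 and Slc25a51. Endothelial markers stood at 9.6% of their vehicle level in sum, with 5 of 5 called lower, and macrophage markers at 33.0%, with 4 of 5 called lower. Interstitial progenitor markers stood at 103.0% in sum, with 1 called higher and 2 lower of 4. Coelomic epithelium (108.5%), smooth muscle (91.3%) and mesonephric tubule (63.1%) had no marker called, with 1 of the 4 tubule genes tested and a tubule sum of 557 in embryo 1 with vehicle against 59 to 270 in the other vehicle libraries (93.0% without embryo 1), and of the 3 pre-granulosa markers (61.4%) Wnt4 was called lower. The part of any of these cell types in the values of the carriers was not tested.

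Carriers that are close relatives were then compared with each other inside each library, a ratio that does not depend on how libraries are scaled. Pairs were taken as the 8 in which 2 tested carriers were each other's closest match by coding sequence, with an identity of 55% or more, and were chosen after the values above had been seen. The longest identical stretch within a pair ran from 11 to 23 bases. The log2 ratio of Slc25a12 to Slc25a13, at 70.3% identity, was 1.65, 2.06, 1.38, 1.92 and 1.52 with vehicle and 1.17, 1.27, 1.03, 0.59 and 1.01 with GPI. It was lower with GPI in 5 of 5 embryos without overlap, by 0.69 on average, p = 0.00794 in an exact two-sided permutation test over 252 regroupings (adjusted p = 0.0318 over the 8 ratios). The log2 ratio of Slc25a28 to Slc25a37, at 65.4% identity, was -1.935, -1.67, -2.60, -2.73 and -2.66 with vehicle and -0.60, -1.27, -1.06, -0.58 and -0.39 with GPI. Here the GPI values were the higher ones without overlap, with a mean difference of 1.54 (exact permutation p = 0.00794, adjusted p = 0.0318), and p = 0.00794 is the smallest that 5 against 5 allow. These regroupings take no account of the embryo. Swapping treatments only within embryos could give no p below 0.0625, and gave an exact p of 0.0625 for both of these pairs.

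The ratio of Slc25a33 to Slc25a36 differed by 1.05 on the log2 scale and was higher with GPI in 4 of 5 embryos (exact permutation p = 0.0238, adjusted p = 0.0476). Without embryo 1, 2, 4 or 5 its exact p was 0.0571 to 0.0857. The ratio of Slc25a23 to Slc25a25 differed by 0.86 and was higher in 4 of 5 embryos (exact permutation p = 0.0238, adjusted p = 0.0476), with an exact p of 0.0571 to 0.0857 without embryo 1, 3, 4 or 5. With swaps within embryos the exact p was 0.125 for each of these 2 ratios. For Slc25a4 and Slc25a5, the closest pair at 77.5% identity, the ratio differed by -0.26 (exact permutation p = 0.183), and by -0.135 without embryo 4. The ratio of Slc25a14 to Slc25a30 differed by -0.32 and was lower with GPI in 5 of 5 embryos, with an exact permutation p of 0.206 over all regroupings and 0.0625, the smallest possible, with swaps within embryos. The ratios of Slc25a45 to Slc25a48 and Slc25a18 to Slc25a22 differed by -0.63 and -0.02, with exact permutation p of 0.373 and 0.968. That of Slc25a45 to Slc25a48 was -0.996 without embryo 2, -0.09 without embryo 3 and -1.10 without embryo 4. That of Slc25a18 to Slc25a22 ran from -0.65 to 0.52 when 1 embryo was left out.

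**Figure D4:**
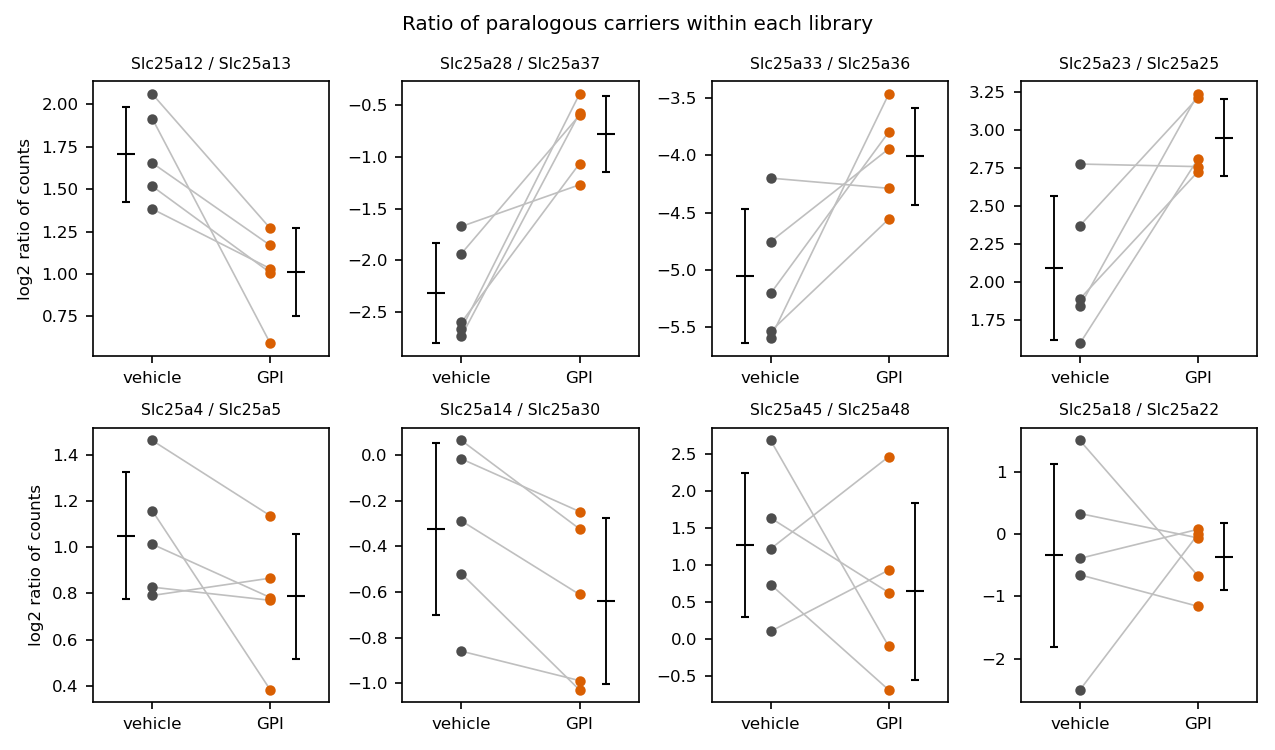
Log2 ratio of the counts of 2 related carriers within a library (vertical axes, which differ between panels and do not start at 0), with 1 point per library for vehicle (grey) and GPI (orange), lines joining the gonads of 1 embryo and bars for mean ± SD (n = 5). In 2 of the 8 pairs, Slc25a12 with Slc25a13 and Slc25a28 with Slc25a37, the treatments lie apart.

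Promoter windows from 250 bases before to 50 bases after a transcription start, from RefSeq on GRCm38.p6, were found for 34 of the 44 carriers, 44 windows in all. Among the called carriers, Slc25a35, Slc25a37 and Slc25a51 had none. The median GC content of carrier windows was 59.3% against 52.7% over all 32851 windows of the genome, and their median number of CpG dinucleotides 15 against 7. Motifs were searched on both strands. The palindromic E-box CACGTG was found in 15.9% of carrier windows and 7.2% of all windows, and the CCAAT box CCAAT in 47.7% and 37.4%. The NRF1 core GCGCATGC was found in 4.5% and 2.7%, the NR5A1 site CAAGGTCA in 0 carrier windows and 1.6% of all, and the composite motif TGATGNAA in 0 and 4.0%. These shares were not tested. Windows holding the E-box belonged to 6 carriers, Slc25a13, Slc25a33, Slc25a36, Slc25a31, Slc25a14 and Slc25a15. The first 4 were called, and their windows are printed because they show the E-box in carriers that rose as well as in 1 that fell. Capitals mark the E-box, CCAAT and, in Slc25a31, the NRF1 core, and sequences run 5′ to 3′ on the strand of the gene.
Slc25a33 (chr4:149774218-149774517, minus strand, E-box 8 bases before the start): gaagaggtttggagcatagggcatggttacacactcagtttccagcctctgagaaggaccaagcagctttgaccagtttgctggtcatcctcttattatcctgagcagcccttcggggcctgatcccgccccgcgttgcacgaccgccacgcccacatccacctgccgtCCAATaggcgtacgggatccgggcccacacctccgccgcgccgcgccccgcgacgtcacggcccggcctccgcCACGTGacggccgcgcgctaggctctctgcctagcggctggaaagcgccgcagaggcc
Slc25a13 (chr6:6217124-6217423, minus strand, E-box 125 bases before the start): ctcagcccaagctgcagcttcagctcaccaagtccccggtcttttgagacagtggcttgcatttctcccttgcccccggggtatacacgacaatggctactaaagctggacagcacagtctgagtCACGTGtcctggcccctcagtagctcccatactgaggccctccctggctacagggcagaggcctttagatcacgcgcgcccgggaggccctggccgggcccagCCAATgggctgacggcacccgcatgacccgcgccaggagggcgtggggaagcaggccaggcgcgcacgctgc
Slc25a36 (chr9:97110992-97111291, minus strand, E-box 187 bases before the start): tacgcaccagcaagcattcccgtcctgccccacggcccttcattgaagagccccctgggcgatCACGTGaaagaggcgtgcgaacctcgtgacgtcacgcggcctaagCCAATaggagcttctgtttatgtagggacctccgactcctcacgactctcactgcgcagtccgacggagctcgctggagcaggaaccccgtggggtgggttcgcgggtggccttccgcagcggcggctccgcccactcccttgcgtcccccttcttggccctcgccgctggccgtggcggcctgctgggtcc
Slc25a31 (chr3:40708621-40708920, plus strand, E-box 93 bases before the start): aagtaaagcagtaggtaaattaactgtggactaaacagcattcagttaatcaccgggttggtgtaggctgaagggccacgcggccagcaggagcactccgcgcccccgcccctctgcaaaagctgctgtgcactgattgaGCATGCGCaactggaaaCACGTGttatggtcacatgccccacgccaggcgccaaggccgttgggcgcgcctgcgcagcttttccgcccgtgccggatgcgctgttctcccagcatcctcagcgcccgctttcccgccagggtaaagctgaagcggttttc

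Other proteins that move solutes or carriers into mitochondria were counted beside the carriers. Of 10 tested mitochondrial transporters without an Slc25a symbol, some of which (Ucp2, Mtch1 and Mtch2) belong to the same protein family, 1 was called higher and 1 lower. Mtch1, an outer membrane protein, had a log2 fold change of -0.46 ± 0.10 (SE, edgeR adjusted p = 0.00441) and Mtch2, an insertase of the outer membrane related to the carriers by sequence, one of 0.33 ± 0.11 (SE, edgeR adjusted p = 0.0372). Mtch2 was not called without embryo 2, 3, 4 or 5 (0.0507 to 0.153) or with scaling by total counts (0.0707). The pyruvate carrier subunit Mpc2 had a log2 fold change of 0.32 (edgeR adjusted p = 0.0505) and passed the threshold without embryo 2 (0.0142). Of the 3 outer membrane channels, Vdac3 was called higher, at 873 ± 94.2 normalized counts under vehicle against 1324 ± 191 under GPI (SD, n = 5) and a log2 fold change of 0.59 ± 0.08 (SE, edgeR adjusted p = 6.19e-05). Vdac1 (-0.06) and Vdac2 (0.08, overlapping Comtd1) were not called. Vdac1 ran from -0.14 without embryo 1 to -0.004 without embryo 4, and Vdac2 was at 0.046 without embryo 1, 0.045 without embryo 3 and 0.03 with scaling by total counts.

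The machinery that imports carriers from the cytosol had 1 of 16 genes called higher and 0 lower, against 11.1% and 11.9% of all tested genes. Timm29, a part of the inner membrane translocase for carriers, had a log2 fold change of 0.53 ± 0.15 (SE, edgeR adjusted p = 0.0196), with an adjusted p of 0.0538 without embryo 2 and 0.0645 without embryo 4. It overlaps Yipf2 on the other strand. Timm8b, which overlaps Nkapd1, had a log2 fold change of 0.34 (edgeR adjusted p = 0.0646) and Tomm20 one of 0.25 (edgeR adjusted p = 0.0906), which passed the threshold without embryo 5 (0.0311). Of 7 genes of the calcium uniporter, 2 were called lower and 0 higher, namely Mcur1 with a log2 fold change of -0.61 ± 0.13 (SE, edgeR adjusted p = 0.00334) and Mcub with one of -1.65 ± 0.51 (SE, edgeR adjusted p = 0.0327). Mcub averaged 22.7 ± 6.26 normalized counts under vehicle against 8.10 ± 6.68 under GPI (SD, n = 5), and its adjusted p was 0.0541 to 0.131 without embryo 2, 3 or 5.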

How the data were processed

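RNA of 10 cultured testes, 5 per treatment, was sequenced with 1 library per gonad. The authors mapped read pairs with STAR 2.5 to mm10, counted them per gene with featureCounts (Subread 1.5.0-p1) on RefSeq Curated models, unstranded, and deposited the counts unscaled; 0 other value columns were found. Genes were filtered with filterByExpr (minimum count 10, minimum total 15), scaled by TMM and tested with edgeR's quasi-likelihood test, mouse and treatment in the design, with Benjamini-Hochberg adjustment over 13941 genes at an FDR of 0.05. The SE is the size of the log2 fold change divided by the root of its F statistic. Directions in single embryos used a prior count of 2. Gonads are paired because both come from 1 embryo. Deviations from treatment means correlated from -0.04 to 0.156 within embryos (mean 0.06). The mean between embryos, -0.015, follows from taking deviations from treatment means and is no separate comparison. No library duplicated another of its treatment (chi-square over degrees of freedom 7.24 to 34.6).

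Members and lists were chosen with earlier results of these data known. Carriers are named, except that 1 tested carrier without a call, and some genes of other lists, are not reported singly; libraries are shown for 19 carriers, the 12 called and 13 picked by role, of which 6 were called, and other lists by their 3 smallest p, or in full up to 5 genes. The paralogue ratios (pseudocount 0.5 counts), the motifs and the settings tried on the ratios, on carriers not shown by library, on marker sums and on other lists were chosen after seeing the data. Lengths and coding sequences are GENCODE M21. Slc25a52, in the list of cofactor carriers, was not found in the table. The fit was repeated with DESeq2, with limma-voom, without the embryo as a term, scaled by DESeq2 size factors or by total counts, without the filter, with 10 counts required in each library, and without each embryo. Python 3.11.15, numpy 2.4.6, pandas 2.3.3, scipy 1.17.1, Biopython 1.88 and matplotlib 3.10.9 were used beside DESeq2 1.42.0, limma 3.58.1, edgeR 4.0.16 and R 4.3.3, with seed 1.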

Additional observations from a re-analysis of the deposited data

Results flagged for a closer look

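Among 50 groups of 5 libraries examined for a value far from the rest, 2 held one, where chance gives about 1 in 20 groups. Slc25a12 had 445 normalized counts in the vehicle library of embryo 2, above the other vehicle libraries at 340 to 365. Slc25a36 had 1566 normalized counts in the GPI library of embryo 1, above the other GPI libraries at 1176 to 1289, and without embryo 1 its log2 fold change was 0.23 (adjusted p = 0.0824, edgeR).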

How the results depend on the processing

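Under DESeq2, limma-voom, DESeq2 size factors, no filter on low counts and a minimum of 10 counts in every library, 8 or 9 carriers were called higher and 2 or 3 lower. With no replicate block 3108 genes were called over the whole table, and 9 carriers higher and 4 lower, and no call of a carrier given by library changed. Scaling by total counts gave 4 carriers higher and 4 lower, with a median log2 fold change over all genes of -0.032 in place of 0.019. Leaving out 1 embryo, which also removes 2 of 10 libraries, gave 4 to 9 carriers higher and 2 to 3 lower, and 969 to 1430 genes called higher over the whole table. The carriers' median log2 fold change ran from 0.108 to 0.216 over the alternatives.

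Signs turned in 4 of the carriers given by library, 5 others and 1 ratio. Leaving out 1 embryo, the log2 fold change ran from -0.100 to 0.028 for Slc25a4, from -0.026 to 0.175 for Slc25a11, from -0.061 to 0.118 for Slc25a12, from -0.041 to 0.114 for Slc25a39, from -0.088 to 0.511 for Slc25a26, from -0.259 to 0.043 for Slc25a32, from -0.034 to 0.148 for Slc25a46, from -0.14 to 0.64 for Slc25a48 and from -0.35 to 0.056 for Slc25a53, and the log2 ratio of Slc25a18 to Slc25a22 ran from -0.652 to 0.518. Slc25a48 was not tested without embryo 5. With scaling by total counts Slc25a12 was at -0.014 and Slc25a39 at -0.022. The cause was not tested. With a minimum of 10 counts in every library Slc25a31 was not tested. The tested carriers with the fewest counts, Slc25a18, Slc25a22, Slc25a31, Slc25a45, Slc25a47 and Slc25a48, had an SE of 0.39 to 0.63, and of these only Slc25a31 was called. Whether depth or the spread between gonads set these errors was not tested.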
